A study of Mus musculus with 3 samples.

Results

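A set of 10 genes of meiosis and the germ line was examined in mouse embryoid bodies, the free-floating aggregates that embryonic stem cells form as they differentiate. The genes were Stra8, Rec8, Sycp1, Sycp2, Sycp3, Dazl, Ddx4, Mael, Prdm1 and Dppa4, taken by name, and all of their probes were used, 13 of the 39429 probes on the array. The mutant embryoid bodies were of the genotype Dido3deltaCT+HADidoNT, which by its name joins a Dido3 protein without its C-terminal end to an added, HA-tagged N-terminal part of Dido. They were compared with wild-type control embryoid bodies, both collected at day 10 of suspension culture in low attachment plates without LIF, the cytokine that keeps mouse stem cells self-renewing. The 3 biological replicates of each genotype were hybridised as pairs, so that every one of the 3 two-colour arrays carried an RNA of both genotypes. Cy3 marked the mutant on arrays 1 and 3, and Cy5 marked it on array 2. The labels name neither the promoter of the added construct nor the number of stem cell clones.

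Germ cells separate early from the rest of the embryo and later enter meiosis, in which homologous chromosomes pair, recombine and are divided between gametes. Retinoic acid induces Stra8 at the entry to meiosis, a cohesin complex holding Rec8 then ties sister chromatids together, and Sycp1, Sycp2 and Sycp3 build the synaptonemal complex between paired chromosomes. Dazl, Ddx4 and Mael act on germ cell RNA and in the defence against transposons, while Prdm1 takes part in setting aside primordial germ cells and Dppa4 is shared by germ cells and pluripotent cells. In embryonic stem cells many germ line genes are held back by DNA methylation and by repressor complexes that bind E2F and E-box motifs in their promoters.

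All log2 ratios divide mutant by wild type, and means carry the SD of the arrays (n = 3). Signals are intensity units of each channel after normalization, set per array and genotype; they include a constant of 50 units, so probes near 80 units are close to the floor and ratios of dim probes are understated. The limma test took the 25496 probes for which mutant, wild type or both stood well above background on every array. Its p-values were adjusted by Benjamini-Hochberg over these probes, with 0.05 as the threshold, and 2.60% of them passed, 1.92% as higher and 0.682% as lower in the mutant. Each gene was represented by its brightest tested probe, and 19667 genes were tested. Median ratios of all genes tested were 0.026, 0.005 and 0.021 on arrays 1, 2 and 3.

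The groups were first set against the transcripts that mark them. Of 4 probes for Dido1, the gene that encodes Dido3, 1 fell in the mutant, at -3.60 ± 0.17 (adjusted p = 0.0310), 2 rose, at 3.03 ± 0.34 (adjusted p = 0.0310) and 2.35 ± 0.40 (adjusted p = 0.0341), and 1 did not pass, at -0.54 ± 0.93 (adjusted p = 0.494). The genotypes also differed in Y-linked transcripts. Eif2s3y was at least 92.8-fold lower in mutant embryoid bodies, and for Ddx3y the bound was at least 23.7-fold (adjusted p = 0.0310 for each). Neither was well above background there, and the bounds, taken from means of 3 arrays, are open to dye bias. Of the other Y-linked genes checked, Uty did not pass, with probes at -1.41 ± 0.56 (adjusted p = 0.0746) and -0.61 ± 0.11 (adjusted p = 0.162). Kdm5d was not well above background in either genotype. The X-linked Xist was well above background in the mutant on array 3 only and was not tested. What part the difference in Y-linked transcripts has in the values below was not tested. Ratios over all tested probes correlated at 0.80 between arrays 1 and 3, 0.38 between arrays 1 and 2 and 0.21 between arrays 2 and 3. Of 10 pluripotency markers 9 were tested, and all 9 were well above background on all arrays in both genotypes. So were 10 of 10 markers of visceral endoderm, the secretory layer of the yolk sac, and 17473 of the 19667 genes tested. A tested gene had cleared background in at least 1 genotype by the filter, so these counts are partly set by it.

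Of the 10 genes, 9 were tested, and 1 of them passed: Stra8 fell in the mutant. Over all genes 2.53% passed, and 0.641% passed as lower in the mutant. At an unadjusted p under 0.05 there were 3 of the 9, Stra8, Rec8 and Prdm1, beside 20.2% of all genes. Rec8 was lower on all 3 arrays and Prdm1 higher on all 3, and neither passed after adjustment. Sycp1, Sycp3, Dazl, Ddx4, Mael and Dppa4 were lower in the mutant on arrays 1 and 2 and higher on array 3, although the ratio of Ddx4 on array 1 was close to 0. Sycp2 was not well above background in either genotype. Signals of the genotypes did not overlap for Stra8, Rec8 and Prdm1, 3 of the 9, while 21.6% of all genes tested had genotypes that did not overlap, 13.0% with the mutant above wild type and 8.58% with it below.

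**Figure D1:**
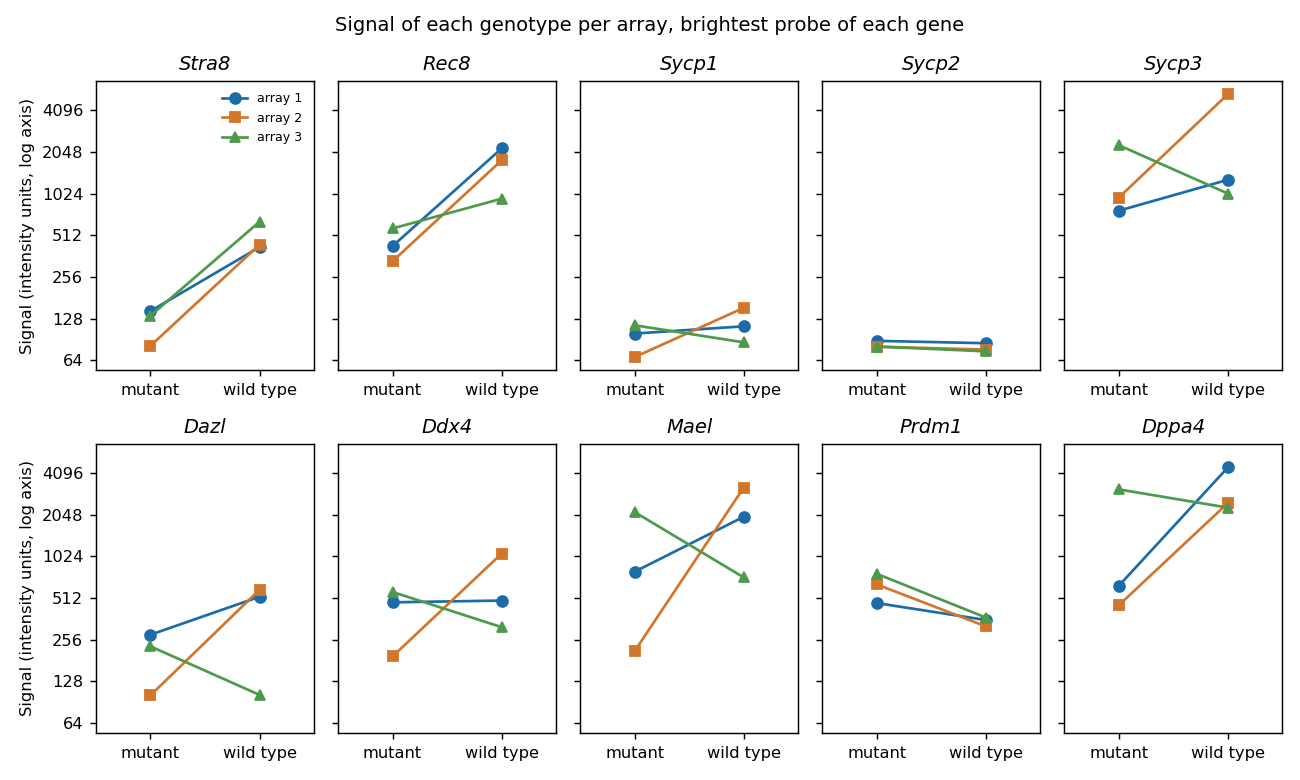
Signal of the mutant (left) and wild type (right) in intensity units on a log axis, for the brightest probe of each of the 10 genes, with a line joining both RNAs of each array. For Stra8 the mutant signals lie between 81.2 and 145 and the wild-type signals between 421 and 642, while the lines of Sycp3, Dazl, Ddx4, Mael and Dppa4 slope one way on arrays 1 and 2 and the other way on array 3.

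Stra8, the retinoic acid induced gene that licenses meiotic entry, had signals of 145, 81.2 and 134 in mutant embryoid bodies on arrays 1, 2 and 3, against 421, 438 and 642 in wild type. Every mutant signal lay below every wild-type one, and the probe was well above background on all arrays in both genotypes. The log2 ratios were -1.54, -2.43 and -2.26, of 1 sign in both dye orientations. Their mean was -2.08 ± 0.47 (SE 0.250, 4.22-fold lower, adjusted p = 0.0398, 95% interval -2.73 to -1.42). Array 2 alone carried the mutant in Cy5, and its ratio was -0.31 with no limit on the local background. In embryoid bodies, a mixture of cell types, fewer cells with a transcript and less transcript per cell cannot be told apart. The call was close to the threshold: over 17 other settings the ratio lay between -3.45 and -1.37 and the adjusted p between 0.00642 and 0.308, and 12 of the 17 called it. It was lost without replicate 1 (-2.35, adjusted p = 0.168), without replicate 3 (-1.98, adjusted p = 0.146), with no limit on the local background (-1.37, adjusted p = 0.308), with no filter on dim probes (-2.08, adjusted p = 0.0634) and in the authors' deposited table (-1.59, adjusted p = 0.0607). The lowest ratio, -3.45, came from the log ratio of the scanner software, which adds no constant. The Stra8 probe lies on chromosome 6 at 34889237 to 34889296 in mm9, the build named in the file headers; exons were not assigned to probes because no annotation of that build was used.

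The 250 bases before the start are shown for Stra8 and Rec8, lower on every array, and for Sycp1, Sycp3, Dazl, Ddx4 and Mael, which are all genes in the table whose ratios turned on array 3. They come from RefSeq on GRCm38.p6, 5′ to 3′ on the strand of the gene, and 9 of the 10 genes matched that table by symbol. Capitals mark matches on either strand to AGGTCA, the half-site of retinoic acid receptors, GCGGGAA, an E2F6-type motif, and CACGTG, the E-box read by MGA and MAX; no matches overlap.
Stra8: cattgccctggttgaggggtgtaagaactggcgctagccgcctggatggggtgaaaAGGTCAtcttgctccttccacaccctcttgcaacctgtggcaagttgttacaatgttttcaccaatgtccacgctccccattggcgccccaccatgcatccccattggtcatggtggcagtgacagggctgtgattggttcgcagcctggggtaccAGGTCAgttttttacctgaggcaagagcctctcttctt
Rec8: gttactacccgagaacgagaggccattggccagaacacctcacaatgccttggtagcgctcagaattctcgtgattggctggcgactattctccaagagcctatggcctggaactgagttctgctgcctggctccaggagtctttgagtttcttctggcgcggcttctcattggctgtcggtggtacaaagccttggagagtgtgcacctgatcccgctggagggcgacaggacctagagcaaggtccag
Sycp1: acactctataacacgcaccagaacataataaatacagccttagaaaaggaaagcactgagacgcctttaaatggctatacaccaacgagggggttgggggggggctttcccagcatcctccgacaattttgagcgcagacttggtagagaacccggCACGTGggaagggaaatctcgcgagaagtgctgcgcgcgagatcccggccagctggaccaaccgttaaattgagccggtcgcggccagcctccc
Sycp3: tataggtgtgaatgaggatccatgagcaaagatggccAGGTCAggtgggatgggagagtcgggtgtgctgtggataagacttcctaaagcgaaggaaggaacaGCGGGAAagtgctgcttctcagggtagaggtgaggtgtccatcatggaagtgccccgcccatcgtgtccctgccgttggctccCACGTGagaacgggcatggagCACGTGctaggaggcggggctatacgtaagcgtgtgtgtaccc
Dazl: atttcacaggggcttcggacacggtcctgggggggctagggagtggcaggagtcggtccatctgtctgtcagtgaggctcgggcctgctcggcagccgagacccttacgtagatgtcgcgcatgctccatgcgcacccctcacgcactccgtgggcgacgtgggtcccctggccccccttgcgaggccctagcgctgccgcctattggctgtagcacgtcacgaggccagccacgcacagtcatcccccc
Ddx4: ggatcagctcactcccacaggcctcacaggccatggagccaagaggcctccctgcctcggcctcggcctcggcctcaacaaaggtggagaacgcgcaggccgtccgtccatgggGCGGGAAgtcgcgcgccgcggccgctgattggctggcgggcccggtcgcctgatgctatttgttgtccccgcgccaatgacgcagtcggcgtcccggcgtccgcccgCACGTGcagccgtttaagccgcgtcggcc
Mael: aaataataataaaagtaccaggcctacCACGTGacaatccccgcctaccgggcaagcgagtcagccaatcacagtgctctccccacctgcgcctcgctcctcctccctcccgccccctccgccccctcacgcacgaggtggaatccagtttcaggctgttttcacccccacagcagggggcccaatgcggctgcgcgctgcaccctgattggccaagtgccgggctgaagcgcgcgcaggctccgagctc
The windows are chr6:34920698-34920947 on the plus strand for Stra8, chr14:55617916-55618165 on the plus strand for Rec8, chr3:102936101-102936350 on the minus strand for Sycp1, chr10:88459337-88459586 on the plus strand for Sycp3, chr17:50293621-50293870 on the minus strand for Dazl, chr13:112652311-112652560 on the minus strand for Ddx4 and chr1:166238745-166238994 on the minus strand for Mael. Stra8 holds AGGTCA 2 times, starting 194 and 38 bases before the start of the gene, which 1.36% of 32851 promoter windows of the same length do; 14.0% hold it at least 1 time. Among the 9 windows, CACGTG is in 4, those of Sycp1, Sycp3, Ddx4 and Mael, and in 6.02% of all windows. GCGGGAA is in 2, those of Sycp3 and Ddx4, and in 3.82% of all windows. Sycp3 holds all 3 motifs, with CACGTG starting 64 and 43 bases before the start. The letters of none of the 3 are in the windows of Rec8, Dazl, Prdm1 and Sycp2. CpG dinucleotides, the sites of DNA methylation, number 31 in Ddx4, 20 in Dazl, 18 in Mael, 17 in Sycp1, 15 in Prdm1, 12 in Sycp3, 10 in Rec8, 7 in Sycp2 and 5 in Stra8, while the median of all windows is 6. These matches describe the letters only, and binding or methylation was not measured.

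Rec8, the cohesin subunit that replaces its mitotic counterpart in meiosis, gave 428, 332 and 574 in mutant embryoid bodies, against 2177, 1786 and 943 in wild type. No mutant signal reached the lowest wild-type one. The ratios were -2.35, -2.43 and -0.72, with the smallest difference on array 3, where wild type was lowest and mutant highest. The mean of -1.83 ± 0.97 (SE 0.401, 3.56-fold lower) did not pass (adjusted p = 0.0931, 95% interval -2.87 to -0.79). It passed with a dye term (-1.98, adjusted p = 0.0425) and in a separate-channel fit (-1.83, adjusted p = 0.0228), and in none of the other 15 settings; over all 17 the adjusted p lay between 0.0228 and 0.407. The probe is on chromosome 14 at 56244160 to 56244219 in mm9.

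The synaptonemal complex genes differed mainly between arrays. Sycp3, an axial element protein, was read by a pair of probes on chromosome 10. The brighter, at 87935675 to 87935734 in mm9, gave 771, 960 and 2298 in mutant embryoid bodies, against 1291, 5375 and 1026 in wild type. Wild type was by far highest on array 2, and the mutant exceeded wild type on array 3 only. Ratios of this probe were -0.74, -2.49 and 1.16, with a mean of -0.69 ± 1.82 (adjusted p = 0.640, 95% interval -2.52 to 1.14). The second, split between 87932348 and 87935438, had 0.20, -3.55 and 2.06 and a mean of -0.43 ± 2.86 (adjusted p = 0.863), so both probes ordered the arrays alike and differed in sign on array 1.

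Sycp1, which forms the transverse filaments of the complex, was close to the floor at 99.7, 67.4 and 114 in mutant embryoid bodies, against 112, 153 and 86.1 in wild type. Its mutant signal on array 2 did not clear background, and it was tested because wild type was above background throughout. The mean ratio was -0.32 ± 0.81 (adjusted p = 0.668). Sycp2, the partner of Sycp3 in the axis, gave 88.2, 80.2 and 80.2 in mutant embryoid bodies and 84.9, 76.3 and 74.1 in wild type. None of these 6 signals was well above background, and no fold is given.

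Dazl, Ddx4 and Mael, germ cell genes that bind RNA or act in the piRNA pathway, varied widely within each genotype. Mael, needed for transposon silencing in the male germ line, gave 793, 211 and 2144 in mutant embryoid bodies, against 1983, 3225 and 722 in wild type. The highest mutant signal was 10.1-fold over the lowest, and the highest wild-type signal 4.47-fold over the lowest. Array 2 had the lowest mutant and the highest wild-type signal, and array 3 the reverse. The ratios of -1.32, -3.93 and 1.57 averaged -1.23 ± 2.75 (adjusted p = 0.566, 95% interval -3.94 to 1.48).

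Dazl, an RNA-binding regulator of germ cell translation, gave 278, 101 and 229 in mutant embryoid bodies, against 523, 588 and 102 in wild type. The wild-type RNA of array 3 lay beside the lowest mutant RNA, and the other wild-type RNAs were above all mutant ones. Its ratios were -0.91, -2.54 and 1.17, with a mean of -0.76 ± 1.86 (adjusted p = 0.607). Ddx4, the Vasa RNA helicase of germ granules, gave 477, 193 and 566 in mutant embryoid bodies, against 491, 1074 and 315 in wild type. On array 1 both genotypes had nearly the same signal, and the ratios were -0.04, -2.47 and 0.84, with a mean of -0.56 ± 1.72 (adjusted p = 0.693). Without replicate 2 the mean ratios of Sycp1, Sycp3, Dazl, Ddx4 and Mael turned positive, at 0.12, 0.21, 0.13, 0.40 and 0.12.

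**Figure D2:**
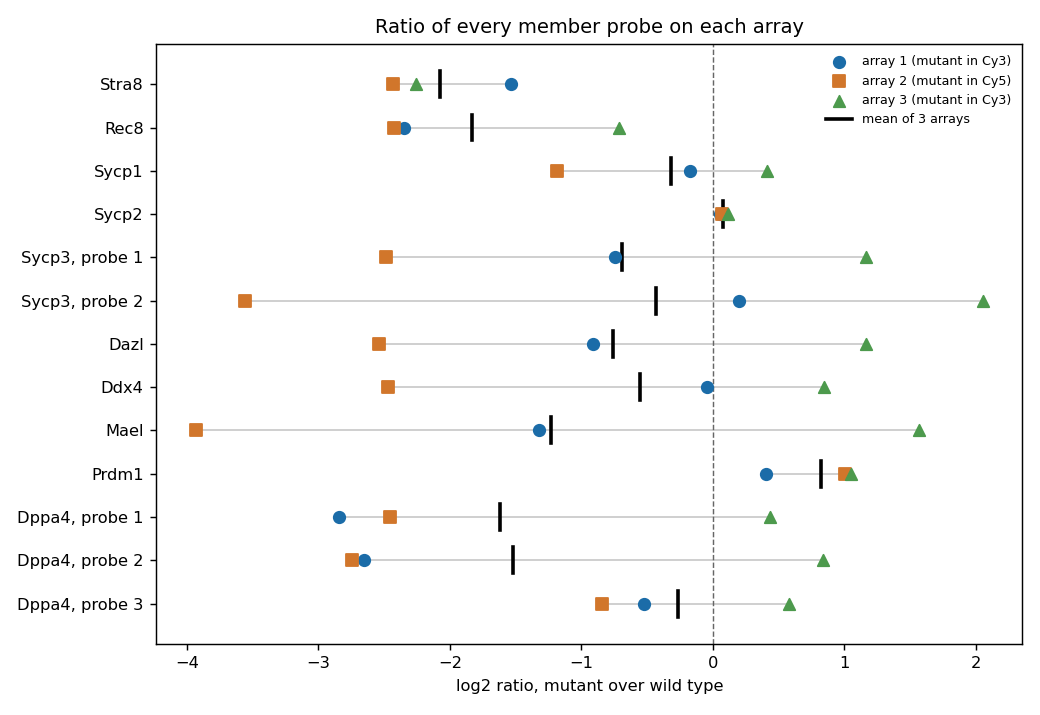
Log2 ratio of mutant over wild type on each array for all 13 probes, with the mean of 3 arrays as a black bar; probes of a gene run from brightest to dimmest. Stra8 and Rec8 lie left of 0 and Prdm1 right of 0 on every array, while the ratios of Mael span -3.93 to 1.57.

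Prdm1, the repressor Blimp1 that takes part in specifying primordial germ cells and is also active in embryonic endoderm, gave 471, 643 and 766 in mutant embryoid bodies, against 355, 319 and 370 in wild type. All mutant signals were above all wild-type ones, with ratios of 0.41, 1.01 and 1.05. The mean of 0.82 ± 0.36 (SE 0.222, 1.77-fold higher) did not pass (adjusted p = 0.134, 95% interval 0.24 to 1.40), nor did it under any of 17 other settings, where it lay between 0.55 and 1.03 (adjusted p 0.0550 to 0.540). The probe is on chromosome 10 at 44157089 to 44157148 in mm9. Of 10 visceral endoderm markers, 9 were higher in the mutant on all 3 arrays, beside 22.5% of all genes, and 3 rose, beside 1.89% of all genes. Their median ratios were 3.31, 1.21 and 2.45 on arrays 1, 2 and 3, highest on array 1, where the ratio of Prdm1 was lowest. Among those that rose was Ttr, the thyroxine carrier, at 2.59 ± 0.69 (adjusted p = 0.0399), and the summed signal of the 10 was 391671 to 737450 in the mutant and 63207 to 193588 in wild type. Their part in the Prdm1 ratio was not tested.

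Dppa4, a chromatin protein of pluripotent cells and early germ cells, was read by 3 probes on chromosome 16. The brightest, at 48291368 to 48291427 in mm9, gave 627, 454 and 3127 in mutant embryoid bodies, against 4508, 2493 and 2307 in wild type. The mutant RNA of array 3 stood apart from the other mutant RNAs, within the range of wild type. Ratios were -2.84, -2.46 and 0.44, with a mean of -1.62 ± 1.79 (adjusted p = 0.278, 95% interval -3.42 to 0.18). The probe split between 48293216 and 48293867 read -2.65, -2.74 and 0.84 and averaged -1.52 ± 2.04 (adjusted p = 0.355). The dimmest, at 48294346 to 48294405, had signals of 96.6 to 206 in the mutant and 138 to 173 in wild type, and its ratios of -0.52, -0.84 and 0.58 averaged -0.26 ± 0.74 (adjusted p = 0.710). This probe was well above background on 2 of 3 mutant arrays, and it was tested because wild type was above background throughout.

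Pluripotency markers had the array pattern of Dppa4. Pou5f1, which encodes Oct4, read -2.77, -2.65 and 0.90, with a mean of -1.51 ± 2.08 (adjusted p = 0.366), and 7 of the 9 tested markers were lower in the mutant on arrays 1 and 2 and higher on array 3. Nanog read 0.73, 0.02 and 0.02, with a mean of 0.26 ± 0.41 (adjusted p = 0.599), and Sox2 was lower on every array, at -1.91 ± 1.18 (adjusted p = 0.117). Summed over the 9 markers the signal was 18458, 16133 and 86929 in mutant embryoid bodies, against 66194, 58096 and 44421 in wild type. Their part in the ratios of the germ cell genes was not tested. The pattern of 2 arrays below 0 and array 3 above it, chosen after the values were seen, was found in 6 of the 9 tested genes and in 6.90% of all genes tested. Arrays 1 and 3 share their dye orientation, and the part of the dyes in the pattern was not tested.

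The other genes of these pathways, with their repressors, were taken from 7 lists with 116 genes in all, of which 101 were tested. Apart from the 10 genes above there were 92 tested, of which 3 rose in the mutant and 0 fell in limma, while over all genes 1.89% passed as higher and 0.641% as lower. At an unadjusted p under 0.05, 8 of the 92 were higher and 15 lower, beside 12.2% and 7.96% of all genes. The median of the 92 was -0.27, beside -0.013 for all genes, with array medians of -0.42, -0.55 and 0.30. Of the 92, 31 were lower in the mutant on arrays 1 and 2 and higher on array 3, or 33.7%, beside 6.90% of all genes. This pattern was chosen after the values were seen. In wild type 89 of the 92 were well above background on all 3 arrays, and in the mutant 80. Testing genes through wild type alone can raise the counts of lower genes.

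**Figure D3:**
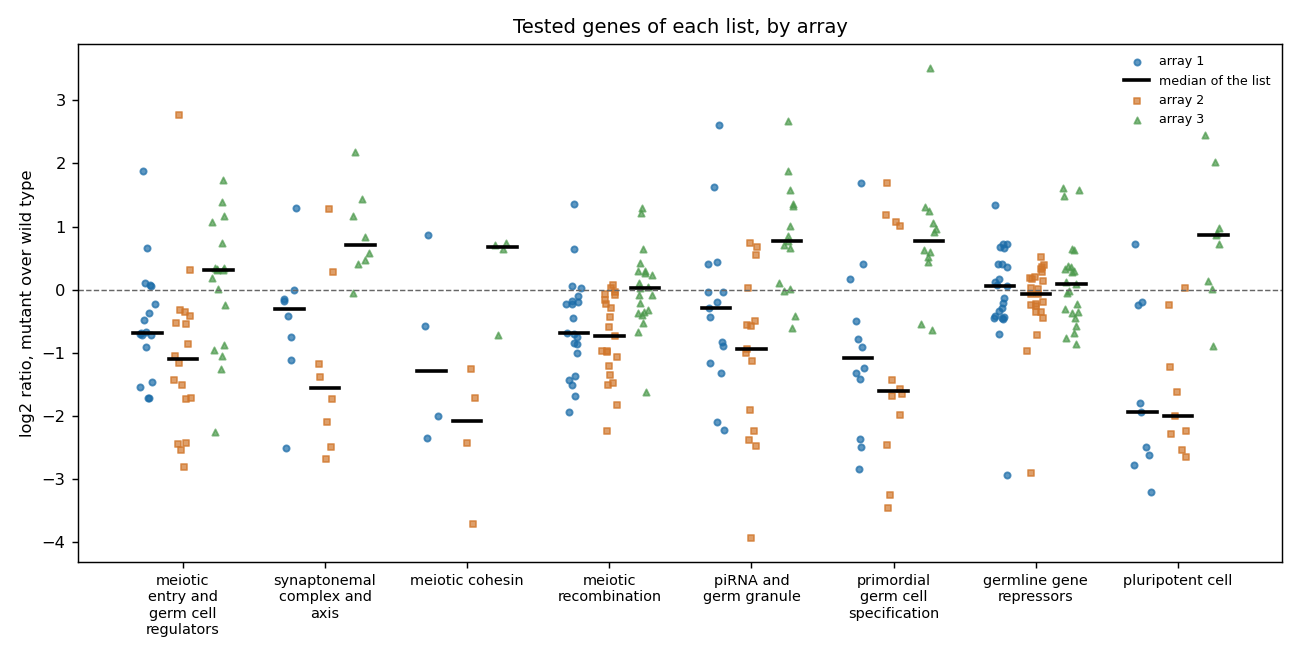
Log2 ratio of mutant over wild type for each tested gene of 8 lists, by array, with the median of the list on that array as a black bar; the lists include the genes described one by one. Medians of the meiotic, germ granule and germ cell specification lists and of the pluripotency markers are below 0 on arrays 1 and 2 and above 0 on array 3, and those of the germline repressors lie between -0.070 and 0.097.

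Among 18 tested regulators of meiotic entry and germ cells, 1 rose and 1, Stra8, fell, beside 1.89% and 0.641% of all genes. At an unadjusted p under 0.05, 2 were higher and 5 lower, beside 12.2% and 7.96% of all genes. Zbtb16, the PLZF factor of spermatogonial stem cells, which is also active in other embryonic tissues, rose by 2.13 ± 0.56 (4.38-fold, adjusted p = 0.0428) and was higher on all 3 arrays. Dmrt1, a regulator of the choice between mitosis and meiosis in male germ cells, missed the threshold at -1.32 ± 0.23 (adjusted p = 0.0503), with 247, 189 and 184 in mutant embryoid bodies against 682, 509 and 381 in wild type. Dnd1, an RNA-binding protein that primordial germ cells need to survive, was at -1.46 ± 0.44 (adjusted p = 0.0577), and both were lower on all arrays. Of the 18, 2 were higher and 5 lower on all 3 arrays, while 22.5% of all genes were higher and 19.1% lower.

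In the synaptonemal complex list, Syce1, a central element protein, rose by 1.33 ± 0.08 (2.52-fold, adjusted p = 0.0461). It gave 780, 1375 and 1364 in mutant embryoid bodies, against 319, 567 and 507 in wild type, so that no signals overlapped. All mutant signals lay above wild type in 13.0% of all genes. The other 7 tested genes did not pass, while 1.89% of all genes passed as higher. Of the 8, 6 had the pattern that turned on array 3, among them Sycp1 and Sycp3, beside 6.90% of all genes. Syce3, another central element protein, read -2.50, -2.68 and 0.59 (adjusted p = 0.311), Hormad2, which binds unpaired axes, averaged -0.67 ± 1.34 (adjusted p = 0.540) and Tex12 -0.44 ± 0.92 (adjusted p = 0.577). Tex12 was well above background on 1 of 3 mutant arrays, so it was tested through wild type, where it is high.

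None of the 4 tested meiotic cohesin genes passed in limma, and 1, Rec8, had an unadjusted p under 0.05. Smc1b, a meiotic cohesin subunit, read -2.01, -3.71 and 0.65 (adjusted p = 0.341), and Stag3, another, -0.57, -1.72 and 0.73 (adjusted p = 0.610). Neither followed Rec8 in being lower on array 3. Sgol2, which protects Rec8 cohesin at centromeres, averaged 0.11 ± 1.18 (adjusted p = 0.927).

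Of 21 tested meiotic recombination genes, 10 were lower in the mutant on all arrays, beside 19.1% of all genes, and 0 passed in limma. At an unadjusted p under 0.05, 6 were lower and 0 higher, beside 7.96% and 12.2% of all genes. Of the 21, 20 were well above background on all wild-type arrays and 15 on all mutant arrays. Some were therefore tested through wild type alone, where they are high, among them Hfm1, Terb1 and Rnf212 of the 10. This filter can raise the counts of lower genes. Hfm1, a helicase needed for crossovers, was at -1.38 ± 0.33 (adjusted p = 0.0536) with signals of 83.8 to 114 in the mutant and 168 to 352 in wild type. Its mutant signal was well above background on 2 of 3 arrays, so it was tested through wild type, where it is high. The partners Psmc3ip and Mnd1, which assist strand exchange, were at -1.05 ± 0.42 (adjusted p = 0.0995) and -1.43 ± 0.96 (adjusted p = 0.144). Zcwpw1, a histone reader of recombination sites, was at -0.62 ± 0.12 (adjusted p = 0.155).

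Among 15 tested piRNA and germ granule genes 0 passed in limma. At an unadjusted p under 0.05, 2 were higher and 2 lower, beside 12.2% and 7.96% of all genes. Of the 15, 3 were higher and 3 lower on all 3 arrays, beside 22.5% and 19.1% of all genes. Asz1, among those higher, was well above background on 3 mutant and 0 wild-type arrays. It was tested only through the mutant, where it is high, and this filter can raise the count of higher genes. Tdrd7 and Tdrd5, Tudor proteins of germ granules, were higher on all arrays at 1.24 ± 0.45 (adjusted p = 0.0774) and 1.99 ± 1.13 (adjusted p = 0.102). Pld6, a mitochondrial factor of piRNA production, was lower on all arrays at -0.75 ± 0.28 (adjusted p = 0.140), and Gtsf1, a partner of Piwi proteins, averaged -1.45 ± 1.35 (adjusted p = 0.223). Gtsf1 was well above background on 2 of 3 mutant arrays, so it was tested through wild type, where it is high. Piwil1 and Piwil4, which bind piRNAs, were not well above background on any array.

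Of 12 primordial germ cell genes, all of which were tested, 1 rose, beside 1.89% of all genes. At an unadjusted p under 0.05, 3 were higher and 2 lower, beside 12.2% and 7.96% of all genes. On all 3 arrays 3 were higher and 2 lower, beside 22.5% and 19.1% of all genes. The pattern that turned on array 3 was found in 6 of the 12, beside 6.90% of all genes. Kitl, the ligand of the Kit receptor on migrating germ cells, was at 1.37 ± 0.27 (adjusted p = 0.049999), with 332, 239 and 288 in mutant embryoid bodies against 103, 105 and 121 in wild type. Wild type was well above background on 2 of 3 arrays, so Kitl was tested only through the mutant, where it is high; with the filter on both genotypes the 4 calls of the germ cell lists became 3. Kit itself was at -0.99 ± 0.58 (adjusted p = 0.145) and Tfap2c, which acts with Prdm1 in germ cell specification, at -1.66 ± 0.91 (adjusted p = 0.102), both lower on all arrays. Dppa3, named after its values were seen, had the widest spread of the list, with 287, 196 and 3762 in mutant embryoid bodies against 538, 2153 and 328 in wild type.

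Repressors of germline genes showed no call: 0 of 23 tested genes passed in limma, and their median was 0.016. At an unadjusted p under 0.05, 1 was higher and 1 lower, beside 12.2% and 7.96% of all genes. Rybp, a subunit of Polycomb repressive complex 1, was at 1.04 ± 0.76 (adjusted p = 0.179) and Ring1, its ubiquitin ligase, at -0.65 ± 0.34 (adjusted p = 0.194). E2f6, which guides such a complex to germline promoters, was at 0.46 ± 0.23 (adjusted p = 0.281) and the demethylase Kdm1a at 0.36 ± 0.03 (adjusted p = 0.338). Dnmt3l, a cofactor of DNA methylation that was named after its values were seen, read -2.94, -2.90 and 1.59 (adjusted p = 0.482), while the methyltransferase Dnmt1 averaged -0.21 ± 0.54 (adjusted p = 0.711).

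Markers of later germ cells were mostly dim. Of 10 late male germ cell markers 3 were tested and 0 passed in limma, with 0 at an unadjusted p under 0.05; Ldhc, a lactate dehydrogenase of sperm, read -1.58, -2.21 and 0.77 (adjusted p = 0.423), and their summed signal was 328 to 425 in the mutant and 353 to 647 in wild type. The protamine gene Prm1 was well above background on 1 mutant and 0 wild-type arrays, and Tnp2 on none. Of 6 tested oocyte markers 0 passed in limma, and 3 were higher at an unadjusted p under 0.05, beside 12.2% of all genes. The summed signal of the 6 was 1879 to 2308 in the mutant and 1268 to 1679 in wild type. Oosp1, an oocyte-secreted protein, was not well above background on any wild-type array. It was tested only through the mutant, where it is high, at 1.43 ± 0.36 (2.69-fold higher, adjusted p = 0.0533). Npm2, an oocyte nucleoplasmin, averaged 1.19 ± 0.69 (adjusted p = 0.129), while the egg coat gene Zp2 was not well above background on any array. Gonadal soma markers gave 0 calls of 7 in limma, with 0 at an unadjusted p under 0.05. All 7 were well above background on all arrays in both genotypes. Their summed signals were 13404 to 22253 in the mutant and 16081 to 18920 in wild type. Gata4 was the brightest of them, with a mean signal of 10341 in the mutant and 9430 in wild type. Of 10 trophoblast markers 2 rose, Cdx2 at 2.14 ± 0.56 (adjusted p = 0.0428) and Hand1 at 1.82 ± 0.30 (adjusted p = 0.0379), both also active in mesoderm, beside 1.89% of all genes. Of the 10, 5 were higher and 1 lower on all 3 arrays, beside 22.5% and 19.1% of all genes. Elf5, the lower gene, was well above background on 1 of 3 mutant arrays, so it was tested through wild type, where it is higher. The median ratio of the 10 was 0.49. Their summed signal was 19475 to 24451 in the mutant and 8581 to 14542 in wild type.

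**Figure D4:**
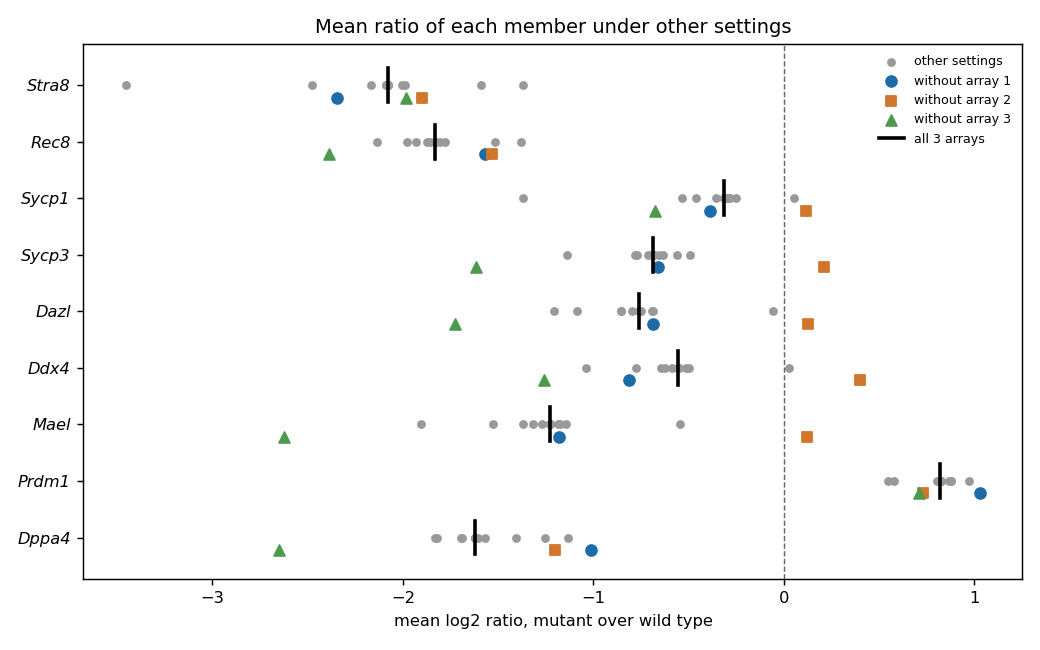
Mean log2 ratio of mutant over wild type for the 9 tested genes with all 3 arrays (black bar), without each array in turn (coloured symbols) and under the other settings (grey points). Stra8, Rec8 and Dppa4 stay below 0 and Prdm1 above 0 in all of them, and without array 2 the means of Sycp1, Sycp3, Dazl, Ddx4 and Mael lie above 0.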

How the data were processed

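Per the labels' protocols, 1 ug of total RNA was amplified, and 300 ng of each cRNA, one in Cy3 and one in Cy5, went onto a mouse 4x44K v2 array from Agilent. Spot and local background intensity are as deposited, written per the file headers by Feature Extraction 10.7.3.1, which also gives a log10 ratio of red over green. The authors' deposited table holds log2 ratios whose background correction and centring are not known; the submitters' processing notes name limma. Regressed on the scanner ratios of bright spots it ran mutant over wild type, with slopes between 0.91 and 0.95, and its medians on arrays 1, 2 and 3 were -0.01, 0.02 and -0.01.

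Local background was limited to 100 units because 25 spots of array 2 exceeded that, the highest at 75739; with the limit the SD of log2 ratios on array 2 was 0.79, without it 0.47. Then limma 3.58.1 in R 4.3.3 applied normexp (offset 50) and loess, in which controls had weight 0. Controls and outliers were then left out, ratios were turned by the labelled dyes, and channels were scaled by Aquantile. The test of each ratio against 0 (lmFit, eBayes) was two-sided, with 4.80 degrees of freedom. A lower bound sets the bright genotype against the dim signal or, if higher, the lowest signal well above background, per array. Median spot intensity was 150 to 288 units, 64.8% to 76.0% of spots per channel were above background and 0 were saturated; the number of arrays limits the precision. RefSeq (GRCm38.p6) named 27234 probes by accession, 3576 by symbol and 565 by synonym, and 8054 kept their file name.

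The 10 genes, the lists and the limit were chosen with earlier results of these data known. Named genes are the 10 genes, up to 4 per list with the smallest p, Pou5f1 and Nanog. Dido1, Xist and the Y-linked genes are checks. Dnmt1, Piwil1, Piwil4, Prm1, Tnp2, Zp2, Terb1, Rnf212, Asz1 and Elf5 were named after their values were seen. The fit was tested on simulated data.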

Additional observations from a re-analysis of the deposited data

How the results depend on the processing

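The number of probes past the adjusted threshold, 664 with 490 higher and 174 lower, depended on the processing. It was 0 with no limit on the local background (3985 at an unadjusted p under 0.05) and in the authors' value table (5201 unadjusted), 142 with no filter on dim probes, 258 with the mean of a gene's probes, 325 with the brightest probe of each gene adjusted over genes (an alternative added after the data were seen, as fewer features are tested), 1139 with an offset of 16, 1315 with the scanner log ratio, 1904 with the separate-channel fit and 3900 with a dye term, of which 2329 were higher. Without each replicate in turn it ranged from 0 to 7191; it was 0 without replicate 1 (2269 unadjusted) or replicate 3 (3167 unadjusted), and the high end came without replicate 2, when both arrays carry the mutant in Cy3. The 1 called gene of the 10 became 0 with no limit, with no filter and in the authors' table, 2 with the dye term and the separate-channel fit, and 0 to 1 without each replicate. For the 4 called genes of the germ cell lists the count was 0 with no limit, with no filter and in the authors' table, 1 with the mean of a gene's probes, 2 with scaling between arrays and with the brightest probe adjusted over genes, 7 with an offset of 16, 11 with the separate-channel fit, 17 with the dye term and 0 to 21 without each replicate. The causes were not tested.

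Signs turned for Sycp1 and Ddx4 with no limit on the local background, at 0.053 and 0.030, and without replicate 2 for 5 genes, none of them past the threshold. Without each replicate in turn Sycp1 ranged from -0.68 to 0.12, Sycp3 from -1.61 to 0.21, Dazl from -1.73 to 0.13, Ddx4 from -1.26 to 0.40 and Mael from -2.63 to 0.12, lowest without replicate 3. Stra8, Rec8, Prdm1 and Dppa4 kept their sign in all 17 alternatives. Each array already pairs 1 mutant with 1 wild-type RNA, so the ratio is the replicate block; the separate-channel fit, with no replicate block, gave the counts of 1904, 2 and 11 above. Sycp1 could not be given a value with the filter on both genotypes. Ratios of dim probes such as that of Sycp1 are understated by the constant of 50 units, and no difference was detectable for Sycp2, which was not well above background.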
